A study of Mus musculus with 16 samples.

Results

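The genes described here encode enzymes and chaperones that modify and fold procollagen in the endoplasmic reticulum (ER). The set was chosen by gene symbol and held 10 genes, all of which were present among the 29629 genes of the single-cell table and the 47729 genes of the bulk table. They were the prolyl 4-hydroxylase alpha subunits P4ha1, P4ha2 and P4ha3, the lysyl hydroxylases Plod1, Plod2 and Plod3, the collagen chaperone Serpinh1 (HSP47), the prolyl isomerase Fkbp10 (FKBP65), the prolyl 3-hydroxylase P3h1 and its partner Crtap. All 10 passed the filter on low counts in both data sets.

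As background, prolines of a procollagen chain are hydroxylated in the ER before the chains wind into a helix, and hydroxyproline keeps that helix stable at body temperature. Lysines hydroxylated there carry sugars and later take part in the cross-links between collagen molecules, and Plod2 acts on the lysines of the non-helical telopeptides. Serpinh1 binds the folded procollagen helix in the ER, while Fkbp10, P3h1 and Crtap act on folding and modification of the chains. Tendon consists largely of type I collagen, and loss of several of these genes in people causes brittle bones or contractures.

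Single cells came from 1 clone of induced pluripotent stem cells (iPSCs) that carries an ScxGFP transgene, in which Scx regulatory sequence drives GFP. T0 cells were induced mesodermal cells that had received no TGF-β2, and cells named T3, T6 and T9 had spent 3, 6 and 9 days with TGF-β2 at 10 ng/ml. By the study's methods, mesoderm had been induced with the Wnt agonist CHIR and the Hedgehog inhibitor cyclopamine, and serum was lowered on the day before TGF-β2. Days in culture and TGF-β2 cannot be told apart, nor can the collagenase used to detach the cells from T3 on but not at T0. Live single cells were sorted without regard to GFP into 384 wells per plate, with 3 plates per time point, and read by CEL-Seq2, which counts 3′ ends of mRNA by unique molecular identifiers (UMIs). Bulk RNA was from the Achilles tendon of 2-week-old mice, 2 wild-type (Scx_Wt) and 2 homozygous Scx knockout (Scx_KO) littermates. Scx encodes Scleraxis, a transcription factor of tendon progenitors, and the allele and its deleted stretch were not given in the sources used here.

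A total of 4594 of 4608 wells held at least 200 genes, with 1921125 to 4657093 UMIs per plate, and the bulk samples held 11188270 to 12398560 counts. Nothing in the labels says that the plates of a time point were separate cultures, so p-values measure the spread between plates, which may be technical. By the submitters' mapping summary, 7 plates, among them all 3 of T0, stand apart from the other 5 by a high share of reads without a feature. With the time point as a term, 4 of the 10 genes were higher on the high side (Plod1, Plod3, P3h1 and P4ha2, by 1.32 to 1.51 fold), where 17.4% of all genes tested were, and none was lower. The labelled identity held in part: Scx, at 8.09 ± 2.17 normalized CPM at T0 (SD, n = 3), reached 739 ± 113 at T3 and 198 ± 77.8 at T9. All 8 tendon markers tested were higher at T9 than at T0 (23.6% of all genes were higher). All 7 epithelial markers were lower at T3 than at T0 (16.2% of all genes were lower), and 6 of 7 at T9 (21.6%). Of 6 pluripotent markers tested, 1 was lower at T3 and 1 at T9, both against T0. The pluripotent list summed to 323 to 635 normalized CPM in the T0 plates and to 0.319 to 385 in the T9 plates. Col1a1 is also in that tendon list. Normalized CPM is the CPM of a gene after scaling of each library by the TMM method.

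The genes lie apart from one another in the GRCm38 genome (GENCODE M21 gene bounds). P4ha1 (ENSMUSG00000019916) spans chr10:59323296-59373304 and P4ha2 (ENSMUSG00000018906) spans chr11:54100095-54131665, both on the plus strand. P4ha3 (ENSMUSG00000051048) lies at chr7:100285520-100319699 on the plus strand and Serpinh1 (ENSMUSG00000070436) at chr7:99345376-99353239 on the minus strand. Plod1 (ENSMUSG00000019055) is at chr4:147909753-147936767 on the minus strand and P3h1 (ENSMUSG00000028641) at chr4:119232915-119248975 on the plus strand. Plod2 (ENSMUSG00000032374) is at chr9:92542223-92608428 on the plus strand and Crtap (ENSMUSG00000032431) at chr9:114375134-114390675 on the minus strand. Plod3 (ENSMUSG00000004846) is at chr5:136987019-136996648 and Fkbp10 (ENSMUSG00000001555) at chr11:100415697-100424824, both on the plus strand. Exons of Plod3 share 529 bases with Znhit1 on the opposite strand, those of Fkbp10 share 193 bases with Nt5c3b and those of Plod2 share 346 bases with Gm38391. Whether the counting used strand is not given in the sources used here. Between T9 and T0 none of these opposite-strand genes passed the test in edgeR (adjusted p from 0.0870 to 0.766).

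The upstream sequences of the prolyl 4-hydroxylase alpha subunits are shown because these genes parted most from one another in the values below. Each runs 5′ to 3′ over the 250 bases before the RefSeq start (GRCm38.p6, plus strand), none of which lies in a GENCODE exon, and capitals mark ACGTG or GCGTG on either strand, the core of the hypoxia response element. The stretches are chr10:59323046-59323295, chr11:54100674-54100923 and chr7:100285270-100285519 in the order printed. That of P4ha2 lies inside the GENCODE bounds of the gene, which begin earlier at 54100095, while the stretches of P4ha1 and P4ha3 end right before theirs.
P4ha1: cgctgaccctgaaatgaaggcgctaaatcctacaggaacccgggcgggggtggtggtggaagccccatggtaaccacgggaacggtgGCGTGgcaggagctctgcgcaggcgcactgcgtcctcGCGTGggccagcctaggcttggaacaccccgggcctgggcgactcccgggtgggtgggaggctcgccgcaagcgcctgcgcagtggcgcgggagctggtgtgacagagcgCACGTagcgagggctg
P4ha2: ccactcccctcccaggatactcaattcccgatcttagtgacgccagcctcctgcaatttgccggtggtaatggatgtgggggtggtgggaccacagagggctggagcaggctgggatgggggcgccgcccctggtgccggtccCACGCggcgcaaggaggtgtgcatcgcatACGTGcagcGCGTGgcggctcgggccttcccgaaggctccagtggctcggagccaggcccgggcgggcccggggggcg
P4ha3: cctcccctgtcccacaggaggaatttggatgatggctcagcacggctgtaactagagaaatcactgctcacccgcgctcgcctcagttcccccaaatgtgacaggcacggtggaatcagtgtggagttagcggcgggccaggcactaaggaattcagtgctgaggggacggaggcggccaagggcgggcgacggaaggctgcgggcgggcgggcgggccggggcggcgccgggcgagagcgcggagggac

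P4ha1 and P4ha2 held 3 such cores each in the printed stretch and P4ha3 held none. RefSeq windows of 300 bases (250 before the start, 50 after it) were at hand for 8 of the 10 genes, in 9 windows, without Plod2 and Fkbp10. ACGTG or GCGTG on either strand was found in 8 of the 9 windows, against 43.8% of all 32851 windows. The median GC content was 62.3% in the 9 windows and 52.7% in all windows. The other motifs searched on both strands were GAANNTTC (1 of the 9 windows, 7.86% of all), CATCTG (1 of the 9, 17.2%), CAGAC (3 of the 9, 49.6%) and the ER stress response element (0 of the 9, 0.119%). The P4ha3 window held none of the motifs searched. These matches are letters in a window, and binding was not measured.

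Between T0 and T3, the first 3 days with TGF-β2, 9 of the 10 genes rose, where 17.0% of all 13372 genes tested rose. The levels of the same 9 genes did not overlap between the T0 and T3 plates, with every T3 plate higher, which held for 24.6% of all genes. P4ha2 rose most, 10.0-fold, followed by Plod2 at 7.12-fold and P4ha1 at 5.23-fold, and Crtap rose least, 1.71-fold. P4ha3 did not pass the test. The median log2 fold change of the 10 genes was 1.499, against 0.01 for all genes.

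The alpha subunits of prolyl 4-hydroxylase, which carry the active site and pair with the disulfide isomerase P4hb, differed from one another. P4ha1 stood at 62.2, 62.8 and 66.9 normalized CPM in the T0 plates and at 239.8, 389.9 and 372 in the T3 plates. It reached 344, 382 and 317 at T6 and 569, 514 and 546 at T9, so that no treated plate overlapped T0. The log2 fold change of P4ha1 was 2.39 ± 0.20 (SE) for T3 against T0 (adjusted p = 9.45e-07, edgeR's quasi-likelihood test) and 3.08 ± 0.20 for T9 against T0 (adjusted p = 4.71e-08).

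P4ha2 was the lower of these subunits at T0, at 30.8, 29.2 and 38.9 normalized CPM. It stood at 320.1, 340.5 and 327 at T3, at 353, 241 and 388 at T6, and at 459, 303 and 535 at T9. The T3 plates were tightly grouped, and the T6 and T9 plates of the low side (241, 459 and 303) included the lowest of each time point. Its log2 fold change was 3.32 ± 0.25 at T3 (adjusted p = 3.70e-07) and 3.72 ± 0.26 at T9 (adjusted p = 6.87e-08, edgeR), both against T0.

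P4ha3 was the highest of the 3 subunits at T0, with 85.3, 91.2 and 82.1 normalized CPM. It remained in the same range at T3 (83.3, 72.2 and 84.1), stood at 90.1, 112 and 95.3 at T6 and at 124, 91.9 and 120.4 at T9. The T3 plates overlapped those of T0, while the lowest T9 plate (91.9) lay just above the highest T0 plate (91.2). The log2 fold change was -0.11 (95% interval -0.44 to 0.21) at T3 and 0.38 (0.06 to 0.70, adjusted p = 0.0727) at T9 against T0 (edgeR). The latter passed without T9 replicate 2 (0.50, adjusted p = 0.0351) and turned to -0.09 with library totals in place of TMM scaling.

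**Figure D1:**
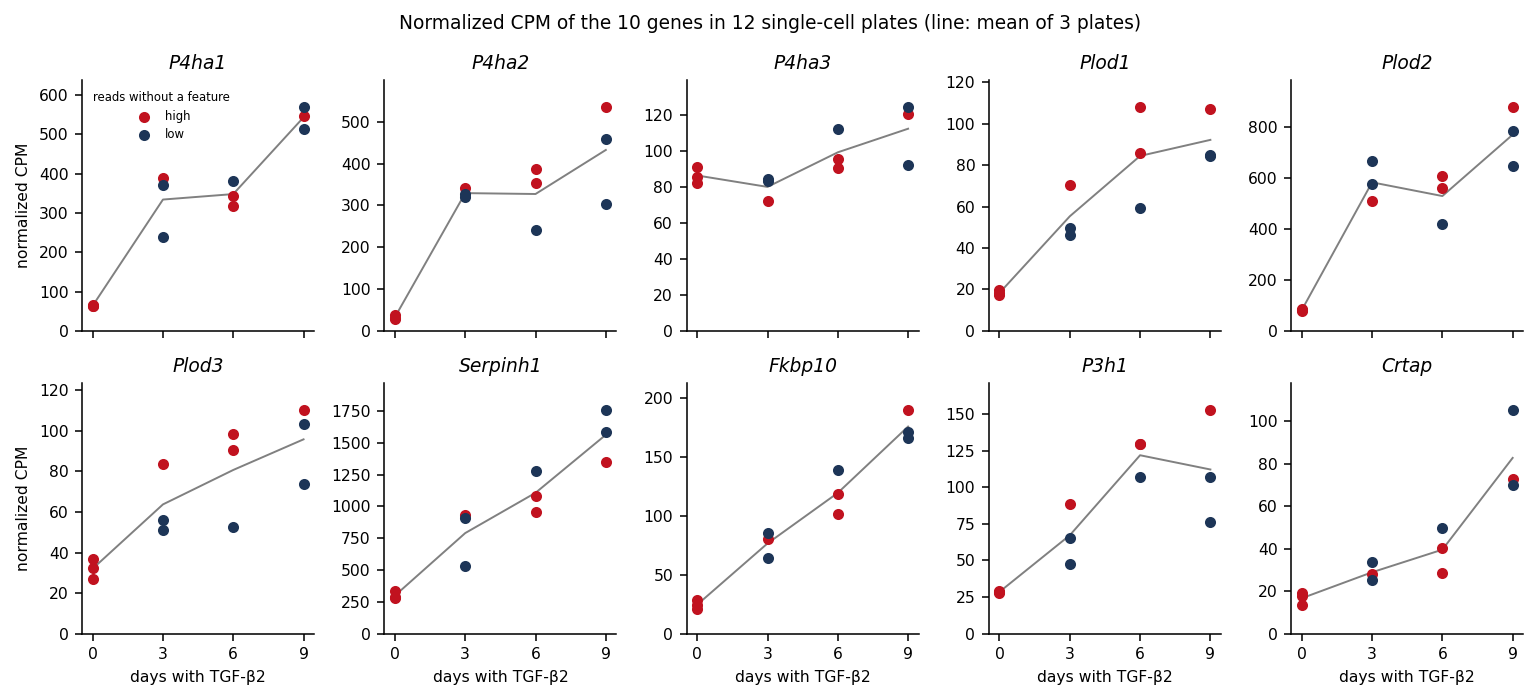
Normalized CPM (y axis, each panel from 0) of the 10 genes in the 12 single-cell plates against days with TGF-β2 (x axis). Points are plates, red on the high and blue on the low side of the split by reads without a feature, and lines join the means of 3 plates. P4ha3 stays between 72.2 and 124 while the other 9 genes lie above their T0 plates in every treated plate.

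The lysyl hydroxylases were led by Plod2, the telopeptide enzyme. It stood at 80.4, 87.8 and 77.5 normalized CPM at T0 and at 576, 509 and 666 at T3, with no overlap. It held 560.4, 418 and 610.4 at T6 and 785, 648 and 879 at T9. For Plod2 the log2 fold change was 2.83 ± 0.21 at T3 (adjusted p = 2.55e-07) and 3.23 ± 0.21 at T9 (adjusted p = 4.04e-08, edgeR) against T0.

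Plod1, which hydroxylates lysines of the helix, was lower: 19.6, 17.2 and 18.3 normalized CPM at T0, 46.1, 70.4 and 49.5 at T3, 108, 59.4 and 86.0 at T6 and 85.0, 84.4 and 107 at T9. Its log2 fold change was 1.60 ± 0.24 at T3 and 2.33 ± 0.24 at T9 against T0 (adjusted p = 1.82e-04 and 3.45e-06, edgeR). Plod3, which also adds glucose to hydroxylysine-linked sugars, stood at 36.9, 32.2 and 27.1 normalized CPM at T0, 56.1, 83.7 and 51.3 at T3, 90.6, 52.8 and 98.6 at T6 and 103, 73.9 and 110.2 at T9. At T3 and at T6 the plates of the high side were the highest for both genes. The log2 fold change of Plod3 was 0.99 ± 0.26 at T3 (adjusted p = 0.0104) and 1.58 ± 0.26 at T9 (adjusted p = 2.52e-04, edgeR). The T3 call was lost without T3 replicate 2 (0.74, adjusted p = 0.0516) or T0 replicate 3 (0.90, adjusted p = 0.0502).

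Serpinh1, the procollagen-binding chaperone, had the highest mean level of the 10 genes in 3′-end counts at every time point. It stood at 333, 278 and 289 normalized CPM at T0, 529.7, 929.6 and 912 at T3, 1080.2, 1280.1 and 959 at T6 and 1756, 1580.1 and 1349 at T9. T3 replicate 1, the plate with the fewest UMIs, lay below the other T3 plates, and there Plod2 (576) was higher than Serpinh1. Against T0, the log2 fold change was 1.40 ± 0.23 at T3 (adjusted p = 3.97e-04) and 2.38 ± 0.24 at T9 (adjusted p = 2.67e-06, edgeR).

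Fkbp10, a prolyl isomerase that acts with Plod2 on telopeptide lysines, stood at 28.5, 24.8 and 20.8 normalized CPM at T0. It was at 64.4, 80.3 and 85.2 at T3, at 118, 139 and 101 at T6 and at 171, 166 and 189.7 at T9. Each time point lay wholly above the one before it. Against T0 the log2 fold change of Fkbp10 was 1.63 ± 0.19 at T3 (adjusted p = 1.93e-05) and 2.82 ± 0.19 at T9 (adjusted p = 5.65e-08, edgeR).

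P3h1 and Crtap belong to 1 complex, in which P3h1 is the enzyme and Crtap the helper subunit. P3h1 stood at 27.8, 28.6 and 29.5 normalized CPM at T0, 47.8, 88.6 and 65.2 at T3, 129, 107 and 129 at T6 and 107, 76.5 and 153 at T9. Crtap stood at 17.6, 19.0 and 13.6 at T0, 33.7, 28.1 and 25.1 at T3, 40.5, 49.7 and 28.6 at T6 and 105, 70.2 and 72.8 at T9. P3h1 thus had its highest mean at T6 (122 ± 13.0, SD, n = 3, against 112 ± 38.3 at T9) and Crtap at T9 (82.8 ± 19.5). The log2 fold change at T3 against T0 was 1.24 ± 0.26 for P3h1 (adjusted p = 0.00219) and 0.78 ± 0.25 for Crtap (adjusted p = 0.0283, edgeR). At T9 against T0 it was 1.97 ± 0.26 for P3h1 (adjusted p = 3.16e-05) and 2.30 ± 0.24 for Crtap (adjusted p = 4.80e-06, edgeR). The Crtap call at T3 was lost without T0 replicate 1 (adjusted p = 0.0573), T0 replicate 3 (0.110), T3 replicate 1 (0.0957) or T3 replicate 2 (0.0520) and with the library split as a covariate (0.58, adjusted p = 0.0661).

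At T9 against T0, 9 of the 10 genes were higher, where 23.6% of all genes were. All 10 genes, P4ha3 included, were higher in every T9 plate than in every T0 plate, which held for 28.7% of all genes. The T9 folds ran from 2.98 for Plod3 to 13.1 for P4ha2 among the genes called. With library totals in place of TMM scaling the median of all genes shifted by -0.49 (log2) at T9 and by -0.21 at T3 against T0. Over all genes, 2279 were higher and 2160 lower at T3 with TMM and 1524 and 2369 with totals, and at T9 3155 and 2895 with TMM and 1755 and 4468 with totals. On that scale the same 9 genes were called at T9, at 1.11 for Plod3 to 3.27 for P4ha2, and Plod3, P3h1 and Crtap were no longer called at T3 (adjusted p = 0.134, 0.0552 and 0.0999, edgeR).

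**Figure D2:**
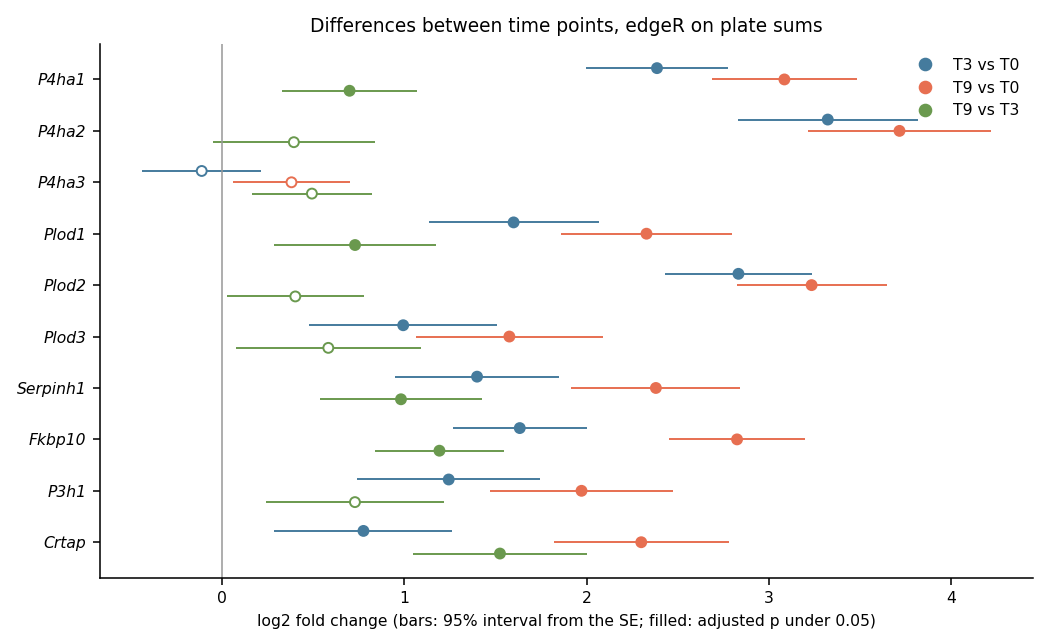
Log2 fold change (x axis) of the 10 genes (y axis) for T3 against T0 (blue), T9 against T0 (orange) and T9 against T3 (green), with bars of the 95% interval and filled points for an adjusted p under 0.05. P4ha2 and Plod2 differ between T9 and T3 by 0.39 and 0.40 with open points, and Crtap by 1.52 with a filled point.

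The single steps after T3 were smaller. Between T3 and T6 none of the 10 genes passed the test in edgeR (4.24% of all genes did), 4 had an unadjusted p under 0.05 (Fkbp10, P3h1, Plod1 and Serpinh1), and DESeq2 called 2. The nearest were Fkbp10 (0.63 ± 0.18, adjusted p = 0.0648) and P3h1 (0.85 ± 0.25, adjusted p = 0.0758). Both were called by DESeq2 (adjusted p = 0.0140 and 0.0371) and with the library split as a covariate (0.0131 and 0.0084). Between T6 and T9 Crtap alone of the 10 genes rose in edgeR (1.07 ± 0.23, adjusted p = 0.0386), where 0.935% of all genes rose. That call was lost without T6 replicate 1 (adjusted p = 0.136), T6 replicate 3 (0.176), T9 replicate 1 (0.197) or T9 replicate 2 (0.0670). It was also lost with the T6 and T9 plates alone (0.151) and with library totals (0.122). DESeq2 called 3 genes, Crtap, P4ha1 (adjusted p = 0.0103) and Fkbp10 (0.0283), and edgeR with the library split as a covariate called 4, these and Plod2 (0.0273). Over all genes, DESeq2 called 558 of 12388 and the split covariate 813 of 13372, against 217 of 13372 in the main fit.

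From T3 to T9, 5 of the 10 genes passed the test, and differences between genes were not tested. Crtap (1.52 ± 0.24, adjusted p = 8.37e-04), Fkbp10 (1.19 ± 0.18, adjusted p = 6.15e-04) and Serpinh1 (0.98 ± 0.23, adjusted p = 0.0100) rose (edgeR). P4ha1 (0.70 ± 0.19, adjusted p = 0.0230) and Plod1 (0.73 ± 0.23, adjusted p = 0.0466) rose too, where 8.31% of all genes rose. P4ha2 differed by 0.39 (95% interval -0.05 to 0.84) and Plod2 by 0.40 (0.02 to 0.78), neither past the threshold (adjusted p = 0.300 and 0.201, edgeR). P3h1 differed by 0.73 (0.24 to 1.22, adjusted p = 0.0684), as much as Plod1, P4ha3 by 0.49 (0.17 to 0.82, adjusted p = 0.0652) and Plod3 by 0.58 (0.08 to 1.09, adjusted p = 0.164), and these 3 were called with the library split as a covariate (adjusted p = 0.00203, 0.0126 and 0.00901, edgeR). The calls of Crtap and Fkbp10 held under each of the 15 alternatives run. Plod1 lost its call without any 1 of T3 replicate 1 or 3 and T9 replicate 1, 2 or 3 (adjusted p from 0.0694 to 0.154), and P4ha1 without T3 replicate 1 (0.0834) or T9 replicate 1 (0.0786). Library totals left Crtap and Fkbp10 alone called, with adjusted p of 0.434 for Plod1, 0.297 for P4ha1 and 0.0991 for Serpinh1. The plates compared alone (0.0847 for Plod1 and 0.102 for P4ha1) also ended calls. Plod1 was called in 6, P4ha1 in 11 and Serpinh1 in 14 of the 15 alternatives.

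The share of each gene within its enzyme family is set out next. P4ha3 held 47.1% ± 3.10 (SD, n = 3) of the UMIs of the 3 alpha subunits at T0 and 10.3% ± 0.41 at T9, while P4ha2 went from 18.0% ± 2.44 to 39.2% ± 5.59 and P4ha1 from 34.9% ± 0.67 to 50.4% ± 5.60. The sum of the 3 was 183 ± 4.84 normalized CPM at T0 and 1087 ± 157 at T9. Among the lysyl hydroxylases, Plod2 went from 61.9% ± 2.80 to 80.4% ± 0.25, Plod3 from 24.2% ± 2.50 to 9.94% ± 0.72 and Plod1 from 13.9% ± 1.21 to 9.66% ± 0.87. In each of these 6 shares the 3 T9 plates did not overlap the 3 T0 plates. Each gave p = 0.1 in an exact two-sided permutation test, the smallest that 3 plates against 3 allow, and 0.1 after Benjamini-Hochberg adjustment over the 6 shares. Shares within a family depend on each other.

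**Figure D3:**
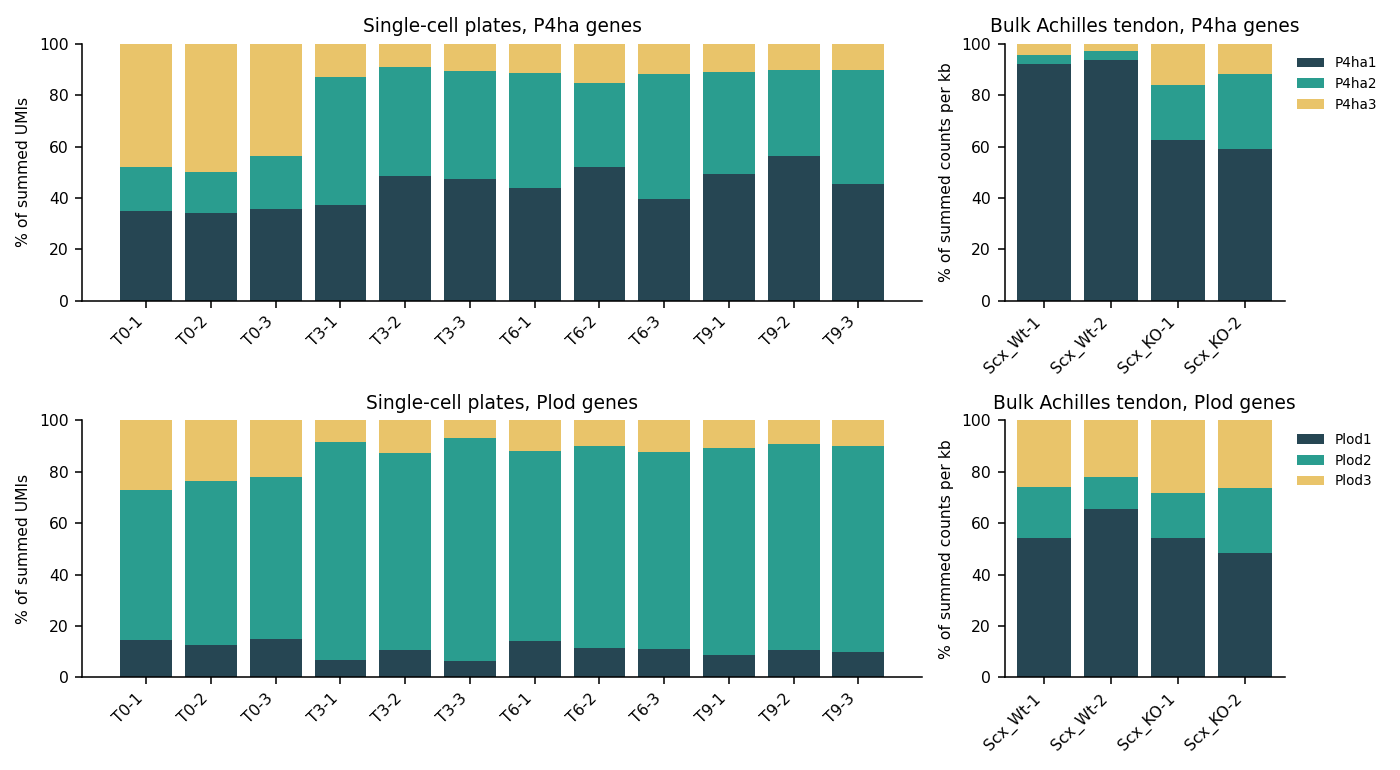
Share of each gene (y axis, percent) in the summed UMIs of its family in 12 single-cell plates (left) and in the summed counts per kilobase of exon in 4 bulk Achilles tendon samples (right), with the P4ha genes above and the Plod genes below and 1 bar per plate or sample. P4ha3 averages 47.1% at T0 and 10.3% at T9, and P4ha1 92.8% in Scx_Wt and 60.8% in Scx_KO tendon.

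Genes that act beside the 10 moved in the same period. Of 9 partner enzymes and foldases tested, 6 rose by T3 and 7 were higher at T9 than at T0. For this and the lists below, the share over all genes was 17.0% higher at T3 and 23.6% higher at T9, both against T0. P4hb, the shared beta subunit of prolyl 4-hydroxylase, went from 229 ± 24.3 normalized CPM at T0 (SD, n = 3) to 598 ± 66.5 at T3 and 873 ± 94.3 at T9 (log2 fold change 1.38 ± 0.18 at T3, adjusted p = 6.70e-05, edgeR). P3h3 (2.11) and P3h4 (1.55), which act with Plod1, and the isomerases Fkbp7 (2.61), Fkbp14 (1.60) and Fkbp9 (0.93) also rose by T3. Colgalt1, which adds galactose to hydroxylysine, differed by 0.03 (adjusted p = 0.947).

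Of the 9 fibrillar collagen genes tested, 7 rose by T3, and at T9 7 were higher and 1 lower than at T0 (21.6% of all genes were lower). Col1a1 went from 227 ± 29.4 normalized CPM at T0 to 12905 ± 6389.6 at T9 and Col1a2 from 158 ± 7.49 to 13107 ± 4256 (SD, n = 3), while Col2a1, the cartilage collagen, was lower at T9 (-4.07 ± 0.63, adjusted p = 1.35e-04, edgeR). All 3 collagen IV genes tested were higher at T9, and 1 of them at T3.

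Of 15 genes for export of procollagen from the ER, 8 rose by T3 and 9 were higher at T9. They included the coat subunits Sec24d (2.11 at T3) and Sec23a (1.73), the retrieval receptor Kdelr3 (3.48) and the transcription factor Creb3l1 (1.51), while Mia3 differed by 0.33 (adjusted p = 0.355, edgeR). Of 4 propeptide removal genes tested, 1 rose by T3 (Adamts2, 3.28) and 3 were higher at T9.

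Of 15 general ER chaperones and stress genes, 8 rose by T3 and 12 were higher at T9, with Hspa5 (BiP) at 0.23 at T3 (adjusted p = 0.410) and 0.60 at T9 (adjusted p = 0.0283, edgeR). Of 11 hypoxia response genes, 10 rose by T3, among them Vegfa (2.55), Pdk1 (2.04) and Egln1 (2.06), and all 11 were higher at T9. The median log2 fold change at T3 was 1.99 for the hypoxia list, 2.24 for the fibrillar collagens, 1.55 for the partners, 0.80 for propeptide removal, 0.55 for the general ER list, 0.51 for export and 0.46 for collagen IV, beside 1.499 for the 10 genes. Over all 7 lists, 41 of 66 genes tested rose by T3 and none fell. By step, 9 rose and 2 fell from T3 to T6, where 4.24% of all genes passed in either direction. From T6 to T9, 1 rose (0.935% of all genes rose). At T9 against T3, 17 were higher and 2 lower (8.31% of all genes were higher).

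Over the 12 plates, the log2 levels of the 9 genes other than P4ha3 correlated with one another at r of 0.74 to 0.99, and P4ha3 with the others at 0.35 to 0.74. The plates share time points and the library split, so these values describe their common course. The genes most like each member in this measure were Nxph4 (0.99) for P4ha1, Tmem26 for P4ha2 (0.99), Nkd1 for P4ha3 (0.92), Col1a1 for Plod1 (0.99), Fgf9 for Plod2 (0.99) and Lipa for Plod3 (0.98). For the chaperones and the P3h1 complex they were Gstm2 for Serpinh1 (0.99), Postn for Fkbp10 (0.99), Timp2 for P3h1 (0.99) and Tmem43 for Crtap (0.97). Tmem26 was also the second for Plod2 (0.99), after Fgf9.

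Cells were grouped into 14 clusters without the 10 genes among the variable genes, to see in which cells each gene was high. A few small clusters carried markers of other cell types, pluripotent-like (95 cells, highest in 8 of 8 markers), epithelial-like (88 cells, 6 of 7) and parietal endoderm-like (33 cells, 13 of 14), and the other clusters stay numbered. The parietal endoderm-like cluster, led by Srgn and Lama1, was also highest in 3 of 7 endothelial markers. The study describes a cluster with Srgn, Tfpi and basement membrane genes as apparently endothelial. Whether these are the same cells was not tested. Values below are CPM of the pooled cells of a cluster without TMM scaling, with exact Poisson intervals at 95% that cover counting error only, and no test was made.

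The 33 parietal endoderm-like cells, of which 3 came from T0, 11 from T6 and 19 from T9, had the highest level of Plod2 of all clusters, 1772 CPM (1660.4 to 1889), against 865 in the next. Parietal endoderm is an extraembryonic cell type that secretes a thick basement membrane rich in collagen IV. Plod3 (252, 211 to 299), P4ha1 (584, 520.5 to 652) and Serpinh1 (1472, 1371 to 1579) were highest there as well. P4ha3 (13.2, 5.30 to 27.2) and Fkbp10 (15.1, 6.50 to 29.7) were near their lowest, each above the pluripotent-like cluster alone. The intervals of P4ha1 and Serpinh1 include the value of the next cluster (542 and 1418), and those of Plod2 and Plod3 do not.

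In the pluripotent-like cells, which came from T0 for 64 of 95, Serpinh1 stood at 98.4 CPM (84.6 to 114), against 363 to 1472 in the other clusters. Fkbp10 (7.11, 3.78 to 12.2), P4ha3 (10.9, 6.68 to 16.9), Plod3 (15.9, 10.6 to 22.8), P4ha2 (31.2, 23.6 to 40.4) and Plod1 (19.1, 13.3 to 26.6) were at their lowest of the 14 clusters in these cells. The intervals of P4ha2 and Plod1 include the means over plates in C2 (37.6 and 20.6). That of P4ha3 includes the value of the parietal endoderm-like cluster. Pooled over all time points, P4ha1 stood at 85.3 CPM and Plod2 at 118 in the pluripotent-like cells. The values were 77.5 and 93.9 in C2 and 77.4 and 103 in C6, which hold T0 cells almost alone. The pluripotent-like pool also holds 15 cells of T3, 4 of T6 and 12 of T9. Averaged over the 3 plates with at least 10 of its cells, P4ha1 was 52.4 ± 11.3 CPM (SD) and Plod2 85.6 ± 3.98. Such means were 75.8 ± 1.76 and 92.7 ± 7.27 in C2 and 76.7 ± 7.78 and 100 ± 20.5 in C6. In the pluripotent-like cells the means over plates of Serpinh1 (61.8 ± 20.3) and Plod1 (12.9 ± 3.09) lay below the intervals of their pooled values. Without the 216 cells of these 3 clusters, 9 of the 10 genes were called at T3 and 9 at T9 against T0, as with them.

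Within T0, P4ha3 was unevenly spread. Cluster C6 (330 cells, with Cdh7, Shisa3 and Dkk1 among its leading genes) held it at 207, 191 and 158 CPM in the 3 T0 plates, and C2 (579 cells, with Lhx2 and Msx1 among them) at 91.6, 90.3 and 88.2. The plates of the clusters did not overlap. P4ha1 stood at 85.5, 74.1 and 70.6 CPM in C6 and at 75.0, 77.9 and 74.7 in C2, which overlap. A higher level in C6 was not particular to P4ha3. As mean and SD of 3 plates, Fkbp10 was 42.5 ± 4.70 CPM in C6 and 27.6 ± 5.94 in C2. P3h1 was 41.8 ± 5.52 and 32.3 ± 0.85, and Serpinh1 476 ± 52.1 and 360 ± 52.6. None of the 10 genes had a lower mean in C6 than in C2.

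Within T3, Plod2 was high in C4 (led by Nptx1 and Gsg1l), at 812, 864 and 950.3 CPM in the 3 plates. It stood at 365 and 415 CPM in C3 (led by Il33), which held cells mainly of replicates 1 and 3, and at 381 in C10, mainly of replicate 2. P4ha2 stood at 371, 546 and 451 CPM in C4, at 237 and 243 in C3 and at 324 in C10. For both genes C4 thus lay above C3 or C10 within each plate. A high level was not particular to C4. C8 (led by Nusap1 and Brip1) held 131 T3 cells. Over 6 plates of T3 and T6 it averaged 711 ± 138 CPM (SD) for Plod2 and 365 ± 49.6 for P4ha2. Such means in C4 were 771 ± 218 and 399 ± 135 (4 plates of T3 and T6). Serpinh1 in replicates 1 and 3 was 474 and 929 in C4 and 464 and 845 in C3, closer to each other than the replicates were. C3 and C10 divide by plate along the library split, and its part in their levels was not tested. The clustering had no term for the split, so the clusters can carry differences between libraries.

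**Figure D4:**
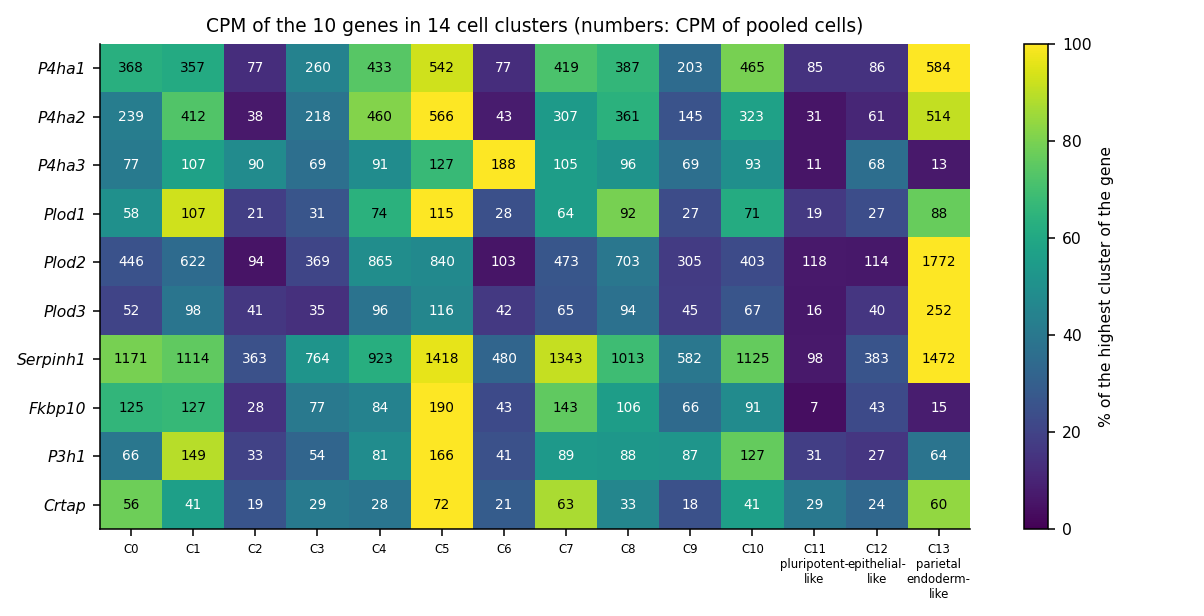
CPM of the pooled cells of 14 clusters (x axis) for the 10 genes (y axis), with colors scaled to the highest cluster of each gene and the CPM printed in each cell. Plod2 and Plod3 are brightest in the parietal endoderm-like cluster C13, P4ha3 in C6, and 6 of the 10 genes are darkest in the pluripotent-like cluster C11.

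The remaining comparison asked how the genes stood in tendon of mice labelled as Scx knockouts. Scx itself was at 97.8 and 83.1 normalized CPM in the Scx_Wt and 23.0 and 26.1 in the Scx_KO samples (log2 fold change -1.88 ± 0.17, adjusted p = 4.29e-04, edgeR), so reads on the gene were fewer but present. Of the 10 genes, 2 were called, in opposite directions, P4ha1 lower and P4ha2 higher in Scx_KO, where 3.84% of all 14602 genes tested were called. In bulk tissue, fewer cells of a type and less RNA per cell cannot be told apart.

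P4ha1 stood at 512 and 612 normalized CPM in the Scx_Wt and at 191 and 166 in the Scx_KO tendons, which did not overlap. It was 3.15-fold lower (log2 fold change -1.66 ± 0.19, adjusted p = 0.00134, edgeR). P4ha2 stood at 30.8 and 35.1 in Scx_Wt and at 99.96 and 124 in Scx_KO and was 3.40-fold higher (1.77 ± 0.17, adjusted p = 6.63e-04). Both calls held under each of the 9 alternatives run, with log2 fold changes of -1.78 to -1.52 for P4ha1 and 1.60 to 1.92 for P4ha2.

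The ratio of P4ha1 to P4ha2 counts per kilobase of exon was 25.3 and 26.5 in the Scx_Wt and 2.90 and 2.02 in the Scx_KO samples. An exact two-sided permutation test of its log2 gave p = 0.333, the smallest that 2 against 2 allow. The ratio is made of the 2 genes called in opposite directions, so its separation follows from those calls and is no separate result. Per kilobase, P4ha1 made up 92.8% ± 1.15 (SD, n = 2) of the family in Scx_Wt and 60.8% ± 2.37 in Scx_KO, P4ha2 3.59% ± 0.08 and 25.4% ± 5.39, and P4ha3 3.57% ± 1.07 and 13.8% ± 3.02. The summed level of the 3 was 147 ± 16.7 normalized CPM per kilobase in Scx_Wt and 71.2 ± 4.35 in Scx_KO. P4ha3 alone stood at 18.4 and 14.0 normalized CPM in Scx_Wt and 37.2 and 24.99 in Scx_KO (0.94 ± 0.25, adjusted p = 0.0756, edgeR), and it was called in 3 of 9 alternatives, without Scx_KO replicate 2 (1.20, adjusted p = 0.0118), with the replicate block (0.0113) and with no filter (0.0015). P4hb, the partner of all 3, differed by 0.10 ± 0.18 (adjusted p = 0.834).

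The other genes showed no called difference. Plod1 stood at 213 and 221 normalized CPM in Scx_Wt and 184 and 153 in Scx_KO (-0.37, 95% interval -0.68 to -0.06, adjusted p = 0.276), and Crtap at 238 and 253 against 194 and 185 (-0.38, -0.67 to -0.08, adjusted p = 0.233, edgeR). Fkbp10 was at 277 and 273 in Scx_Wt and at 243 and 222 in Scx_KO (-0.24, -0.55 to 0.06). These 3 genes and P4ha1 were lower in both Scx_KO samples than in both Scx_Wt samples, P4ha2 and P4ha3 higher, and the remaining 4 overlapped. Groups that did not overlap made up 49.3% of all genes. Serpinh1 stood at 912 and 1065 in Scx_Wt and at 936 and 876 in Scx_KO (-0.13, -0.51 to 0.26). Plod2 differed by 0.22 (-0.31 to 0.75), Plod3 by 0.02 (-0.35 to 0.39) and P3h1 by 0.13 (-0.18 to 0.43).

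**Figure D5:**
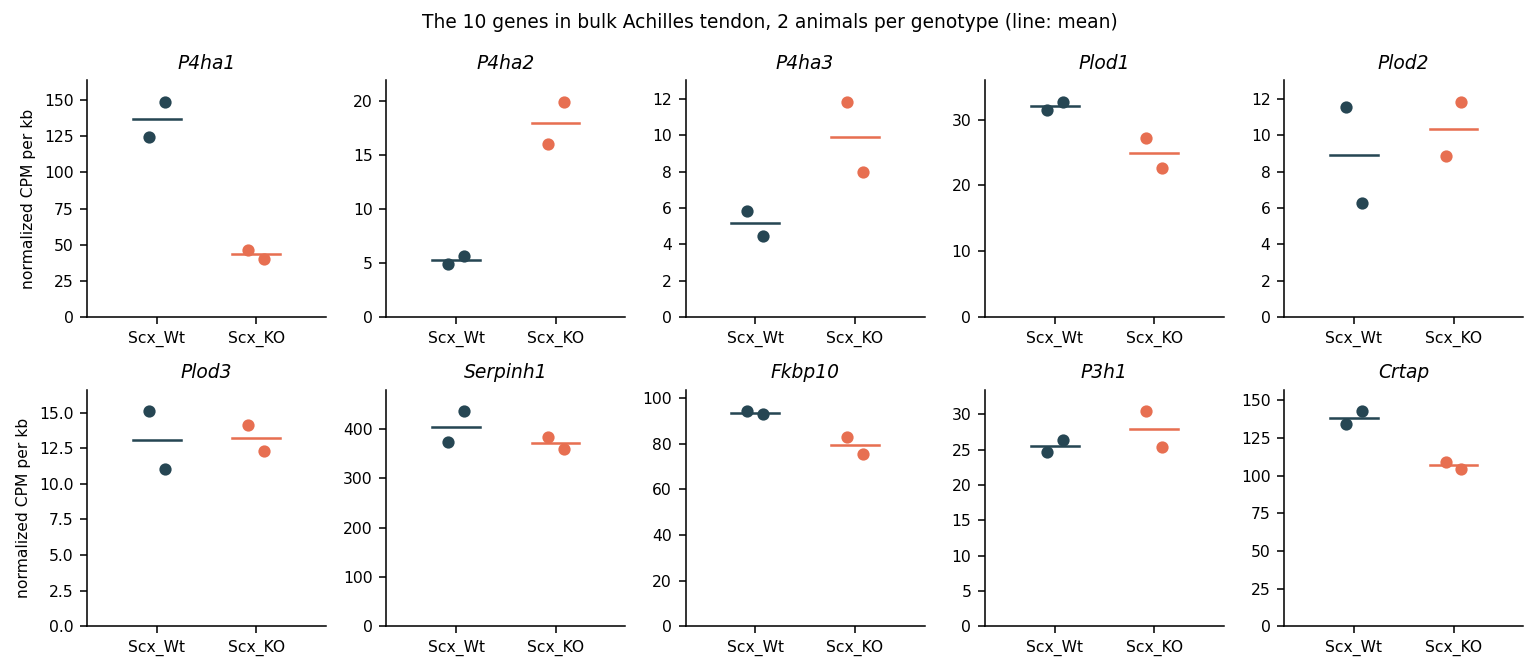
Normalized CPM per kilobase of exon (y axis, each panel from 0) of the 10 genes in bulk Achilles tendon of 2 Scx_Wt and 2 Scx_KO mice (x axis), with points for animals and lines for means. P4ha1 falls from 125 and 149 to 46.4 and 40.3 and P4ha2 rises from 4.93 and 5.62 to 16.0 and 19.9, while Serpinh1 lies between 358 and 436 in all 4 samples.

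Per kilobase of exon in Scx_Wt tendon, Serpinh1 was the most abundant (405 ± 44.4 normalized CPM per kilobase, SD, n = 2). Crtap (139 ± 5.98) and P4ha1 (137 ± 17.2) came next and did not differ beyond their spread, then Fkbp10 (93.6 ± 0.90), Plod1 (32.1 ± 0.89), P3h1 (25.6 ± 1.21), Plod3 (13.1 ± 2.89) and Plod2 (8.90 ± 3.75). P4ha2 (5.28 ± 0.49) and P4ha3 (5.16 ± 0.98) were the lowest and overlapped.

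Around the 10 genes, 10 of 75 pathway genes tested were called in Scx_KO tendon, 3 higher and 7 lower (3.84% of all genes were called). The fibrillar collagens Col3a1 (1.41), Col5a1 (1.37) and Col5a2 (1.23) were higher, and Col11a1 (-1.20), Col2a1 (-5.09) and Col11a2 (-4.34) were lower, while Col1a1 differed by -0.96 ± 0.32 (adjusted p = 0.148) and Col1a2 by -0.95 ± 0.31 (adjusted p = 0.142, edgeR). Of 10 partners, Fkbp9 was lower (-0.95), of 15 export genes Creb3l1 (-0.63), of 7 propeptide removal genes Pcolce2 (-2.24) and of 11 hypoxia response genes Car9 (-4.84). None of 15 general ER genes and none of 6 collagen IV genes was called in edgeR. For these 2 lists, the numbers at an unadjusted p under 0.05 were 2 and 2, and DESeq2 called 1 and 0.

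Marker lists of tendon and other tissues are given beside these results. Summed over its 6 genes, the skeletal muscle list stood at 29337 and 57499.9 normalized CPM in Scx_Wt and at 72544 to 79549.5 in Scx_KO, with none called. The 9 tendon markers summed to 89387 to 89989.5 in Scx_Wt and 40388 to 48713 in Scx_KO (6 lower), and cartilage markers to 733 to 749 and 29.7 to 46.1 (3 of 5 tested lower). Adipocyte markers summed to 1098 to 2317 and 357 to 665 (2 of 5 lower), endothelial markers to 835 to 909 and 573 to 659 (1 of 7 lower), and nerve and Schwann markers to 1113.8 to 1120.99 and 314 to 7374 (none of 5 called). Their part in the P4ha1 and P4ha2 differences was not tested.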

How the data were processed

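The single-cell files held UMI counts per gene and well and the bulk files held read counts per gene, both deposited by the authors as raw counts. By the submitters' processing notes the reads were aligned to GRCm38 with HISAT2 (2.2.1 and 2.0.4) and counted with featureCounts (1.5.0 among the versions named) and UMI-tools 1.0.1. Wells with at least 200 genes were summed per plate, and 3 rows with no gene identifier (0.0642% of UMIs) were left out. Each comparison used edgeR 4.0.16 (quasi-likelihood test, TMM, filter on low counts), with all 12 plates in 1 fit and the 4 bulk samples in another, and Benjamini-Hochberg adjusted p under 0.05 over all genes tested. The scripts were tested on simulated data. DESeq2 1.42.0 was an alternative. Clusters came from Seurat 5.3.0 (10 principal components, resolution 0.8), and doublets were not called. By its methods, the study left a principal component with a batch effect out of its map of the cells. None of the 10 components was left out here, and no batch term was used. The study gives a slightly different cell number than the 4594 kept here.

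The members and lists were chosen with earlier results of these data known. Genes named were the 10 members, genes of the lists by role, Scx, and for likeness the 2 genes with the highest Pearson r over 12 plates for each member. The comparison of T9 with T3, library totals, the sums without other cell types and the test of the library split were added after the data were seen. Plates of the same number deviated with r of -0.563 to 0.515 and plates of different numbers with r of -0.563 to 0.488. Bulk samples of the same number gave 0.0715, and with 2 per group the other pairing must give the same value with its sign turned. The check therefore cannot decide whether numbers pair samples, and the main fits used no pairing. Intervals on counts cover counting error only.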

Additional observations from a re-analysis of the deposited data

How the results depend on the processing

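At T3 and T9 against T0, the numbers of the 10 genes called ranged over 7 to 9 and 9 to 10 when 1 plate was left out, and those of the 66 pathway genes over 36 to 39 and 50 to 53. The later steps depended more on the processing, and the cause was not tested. From T3 to T6 (0 of the 10 genes, 11 pathway genes) DESeq2 called 2 of the 10, the library split as a covariate 2 and 23, no filter 1 of the 10, library totals 5 pathway genes and the plates compared alone 6. Leaving out 1 plate gave 0 to 1 and 5 to 15. From T6 to T9 (1 and 1) DESeq2 called 3 and 8, the split covariate 4 and 15, library totals 0 and 0, the plates compared alone 0 and 0, no filter 2 pathway genes, size factors 2 and sums without other cell types 4. Leaving out 1 plate gave 0 to 1 and 0 to 5. From T3 to T9 (5 and 19) the split covariate gave 8 and 32, totals 2 of the 10 genes, the plates compared alone 3, and leaving out 1 plate 3 to 6 and 14 to 18. Over all genes, 1111 were higher and 774 lower at T9 than at T3 with TMM and 568 and 1052 with totals, and 125 and 92 at T9 against T6 became 27 and 63. The numbers called over all genes moved with the setting too. From T6 to T9 they were 217 in the main fit, 558 with DESeq2 and 813 with the split covariate. Totals gave 90 there and the plates compared alone 45. From T3 to T6 these counts were 567, 868 and 1483, with 264 for the plates compared alone. From T3 to T9 they were 1885 in the main fit, 3405 with the split covariate and 1205 with the plates compared alone. In bulk (2 and 10) no filter gave 19 pathway genes, and leaving out 1 sample, with the lone sample assumed to vary like the others, 2 to 3 and 7 to 13. P4ha3 in epithelial-like cells was 99.4 CPM at resolutions 0.6 and 1.0, against 67.7.

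Signs turned only for log2 fold changes that were not called. From T3 to T6, P4ha1 was -0.0031 with totals and -0.0028 without other cell types (-0.13 to 0.16 with 1 library left out), P4ha2 was 0.029 with 1000 genes per well and 0.023 with no filter (-0.18 to 0.17 with 1 library left out), and Plod2 ran from -0.28 to 0.0075 with 1 library left out. From T6 to T9, totals gave -0.032 for P4ha3, -0.13 for Plod1 (-0.072 to 0.36 with 1 library left out) and -0.014 for Plod3, and the split covariate 0.035 for P3h1 (-0.39 to 0.091 with 1 library left out). At T9 against T0 totals gave -0.090 for P4ha3. In bulk, Plod3 was -0.032 with totals (-0.19 to 0.26 with 1 library left out), Plod2 ran from -0.16 to 0.73 with 1 library left out and P3h1 from -0.0084 to 0.25 with 1 library left out.

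With the replicate number as a block, the counts of the 10 genes called were 9 at T3 and 9 at T9 against T0, 0 from T3 to T6, 1 from T6 to T9, 4 from T3 to T9 and 3 in bulk, where P4ha3 was added, and those of the pathway genes were 39, 52, 8, 1, 15 and 15. Over all genes in bulk, 1108 were called with the block and 560 without it.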
